A study of Homo sapiens with 3 samples.

Results

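The genes described here build, organise and move actin filaments: actins, the proteins that hold or release actin monomers, the proteins that nucleate, cut, cap and coat filaments, and the myosins, tropomyosins and troponins of contractile fibres. The rule for members uses gene symbols alone, though it was set with earlier results of these data known, and 82 of the 18345 genes in the deposited tables qualified. Of the 82, 52 reached 1 FPKM in at least 1 library and are called measured, and 41 reached 10 FPKM. FPKM counts sequenced fragments per length of transcript and per size of the library, so levels of different genes can be set side by side. The sources used here do not name the unit, and FPKM was assumed. Sets of 3 values are for CD105neg, CD105low and CD105high, in that order, the populations described next.

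The cells came from H1, a human embryonic stem cell line in common use. A first stage of 2 days used 40 ng/ml activin A and 50 ng/ml BMP4, a second of 3 days used 40 ng/ml VEGF and 50 ng/ml bFGF, and the label of the cells gives day 4 of blood differentiation. All 3 populations were CD31+CD34+ cells, called HEPs in the labels, and differed in surface CD105 (endoglin): negative, low or high, written here as CD105neg, CD105low and CD105high. RNA-seq was made from 1 library of each population, so no difference below has a replicate check, no test between populations was possible and every comparison is between libraries. ENG, which encodes CD105, was lowest in CD105neg and highest in CD105high (2.12, 8.56 and 13.8 FPKM). All 9 endothelial markers examined reached 1 FPKM, and their summed level was 1271 (CD105neg), 1735 (CD105low) and 1805 FPKM (CD105high).

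Actin exists as monomers and as filaments that grow at the barbed end and shrink at the pointed end. Beta-thymosins hold monomers in reserve, profilins deliver them to growing ends, the Arp2/3 complex starts branches, and cofilins sever old filaments. Non-muscle myosin II pulls on filaments in every cell type, switched on by phosphorylation of its regulatory light chain. In endothelium this machinery sets cell shape, junction tension and migration. Muscle cells carry further isoforms of the same families, arranged with troponin into sarcomeres.

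Most of the actin machinery stood at similar levels in the 3 libraries, and the larger differences sat in single genes, led in size by MYL4, DSTN and TMOD2. The members took 2.59% of the summed FPKM of all genes in CD105neg, 2.86% in CD105low and 3.12% in CD105high. Beta-thymosins alone made up 46.5%, 51.4% and 53.6% of the members' sum. Without them the members took 1.39%, 1.39% and 1.45% of each library. The median log2 fold change over the 52 measured members was -0.12 for CD105high against CD105neg, beside -0.09 over all 11343 measured genes.

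**Figure D1:**
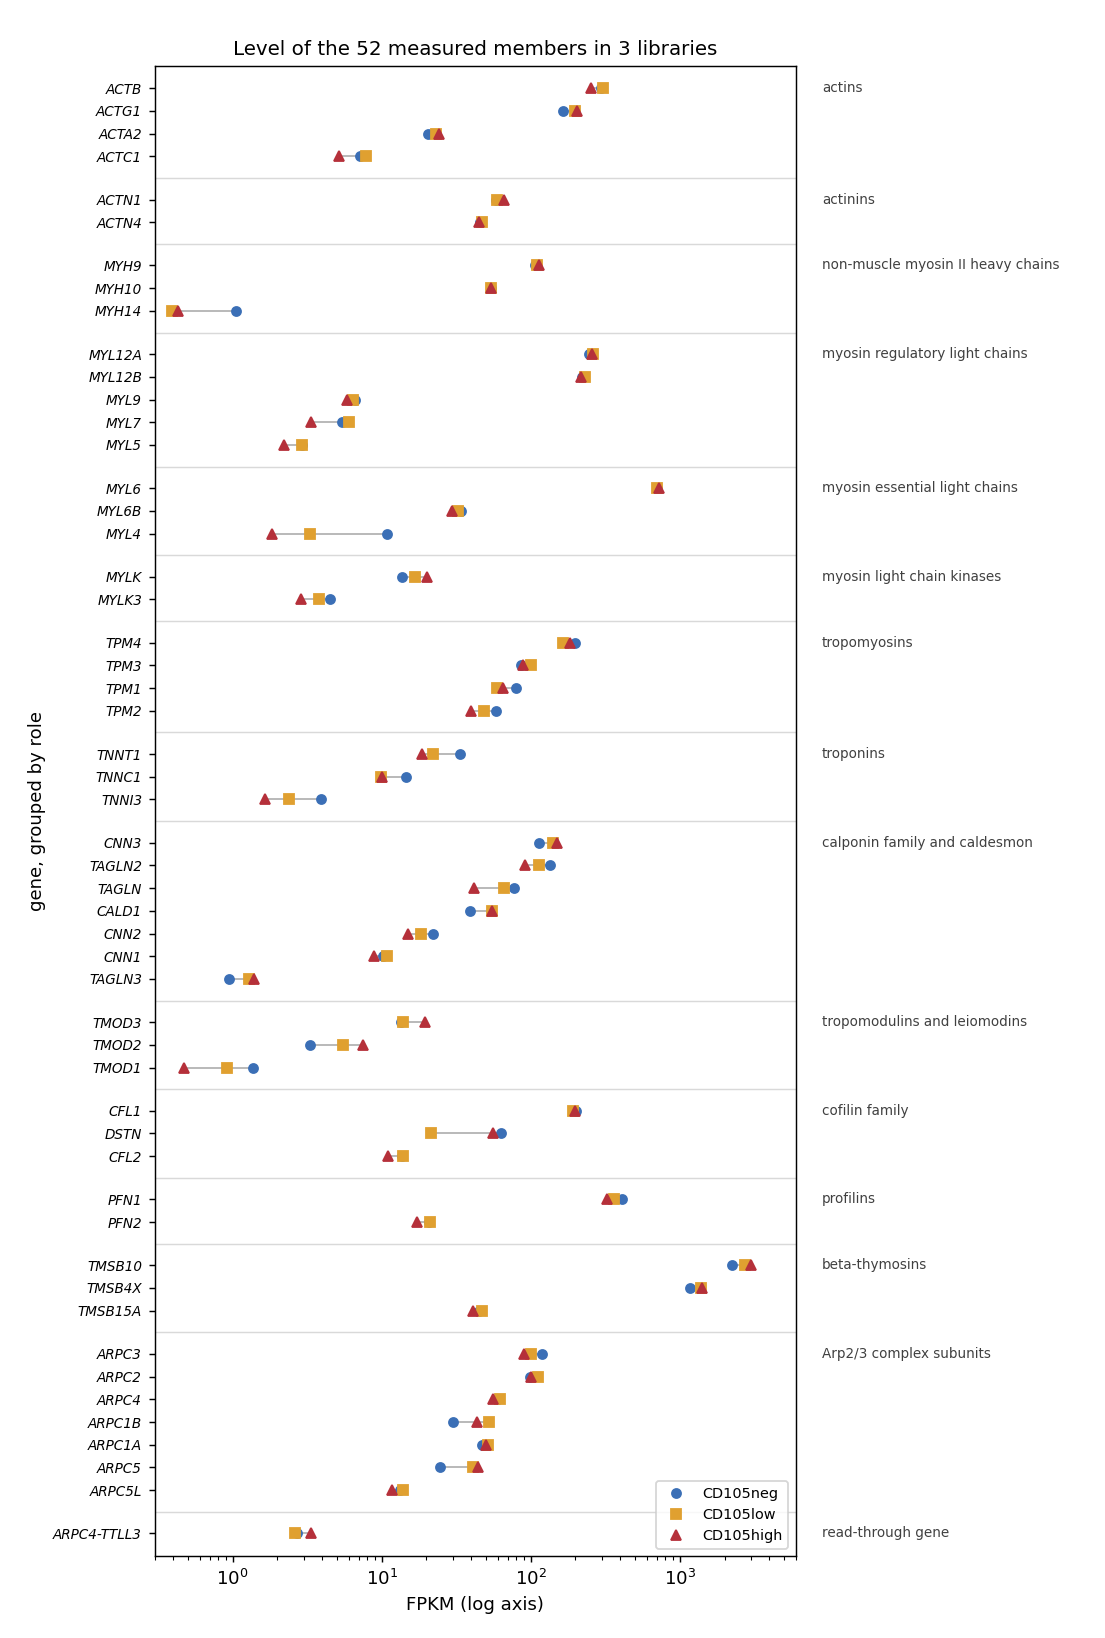
Level of each of the 52 measured members on a logarithmic FPKM axis, grouped by role, with 1 point per library and a line over the range of the 3 libraries. TMSB10 and TMSB4X lie furthest to the right, and MYL4, TMOD1, MYH14 and DSTN have long lines.

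The fold of a gene is given on the value plus 1, which shrinks the fold of low genes, and a member is called higher or lower where that fold reaches 1.5. Between CD105high and CD105neg, 2 of 52 measured members were higher and 5 were lower. Over all measured genes 5.65% were higher and 6.88% lower by the same rule, so the members' shares, 3.85% and 9.62%, lay near the background. The 2 that were higher were TMOD2 and ARPC5, and the 5 that were lower were MYL4, TNNI3, TAGLN, TNNT1 and TMOD1. Genes at or above 10 FPKM had a median log2 fold change of -0.10 in this comparison. After centring on that median the split was 5 higher and 4 lower, and with every library rescaled to the same sum it was 6 higher and 5 lower. In both cases ARPC1B, MYLK and TMOD3 joined the higher genes, and CALD1 did so after rescaling. The shares over all measured genes were counted on the deposited scale only, so the centred and rescaled splits have no background beside them.

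Between CD105low and CD105neg, 3 members were higher and 3 were lower, 5.77% each. The background was 4.13% higher and 2.18% lower. The median over the members was 0.03 and the mean -0.04, so the members had no common direction here. ARPC1B, ARPC5 and TMOD2, the last short of 1.5-fold with a pseudocount of 5 (log2 fold change 0.35), were the higher ones, and DSTN, MYL4 and TNNT1 the lower ones. Between CD105high and CD105low, 1 member, DSTN, was higher against a background of 1.18%, and 3 members, MYL7, TAGLN and MYL4, were lower against a background of 2.19%. These comparisons share libraries, so the value of a gene in CD105neg enters the first and the second, and its value in CD105low the second and the third.

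**Figure D2:**
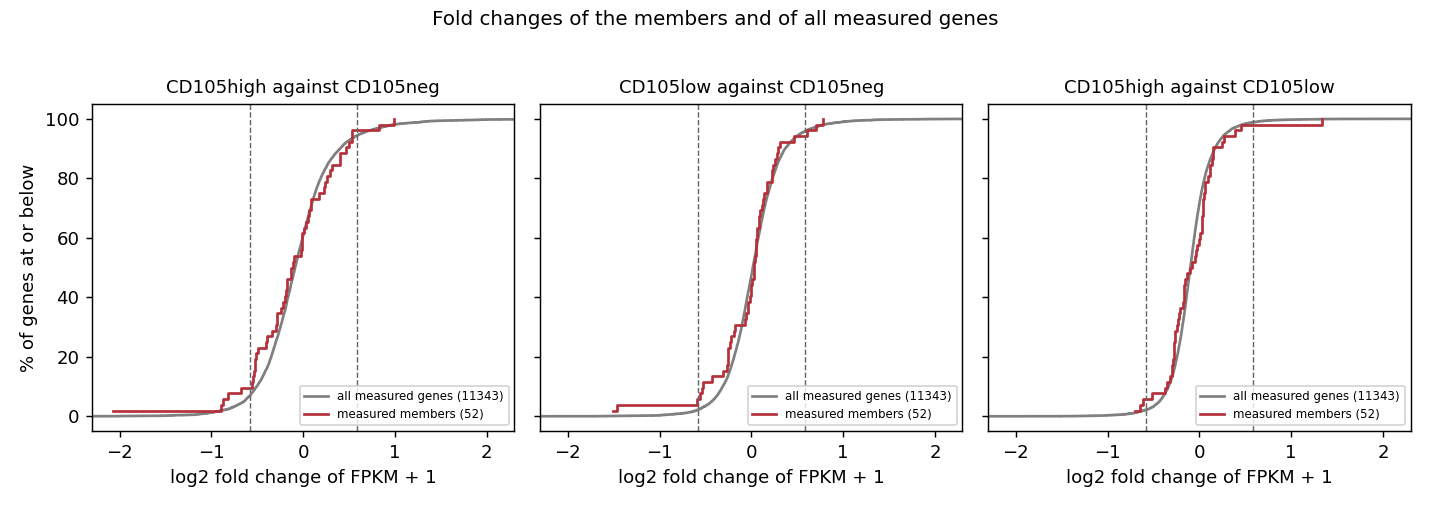
Cumulative share of genes (vertical axis, percent) by log2 fold change of FPKM + 1 (horizontal axis) for each pair of libraries, for the 52 measured members and for all 11343 measured genes, with dashed lines at 1.5-fold. The curves of members and of all genes run close together, with single members at the ends: MYL4 at -2.07, and DSTN at -1.51 and 1.34.

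Values in step order over the 3 libraries, from CD105neg through CD105low to CD105high, were found for 28 of the 52 measured members. Of these, 13 members (25%) increased at each step, where 17.6% of all measured genes did, and 15 members (28.8%) decreased at each step, where 36.4% of all measured genes did. After rescaling to equal sums, 19 members (36.5%) increased at each step, beside 29.8% of all measured genes, and 13 (25%) decreased, beside 26.7%. Most of these steps were small: between the ends, 7 of the 28 were 1.5-fold apart, the same genes as counted above for CD105high against CD105neg. The matching share among all measured genes in step order was not counted, so this count has no background.

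**Figure D3:**
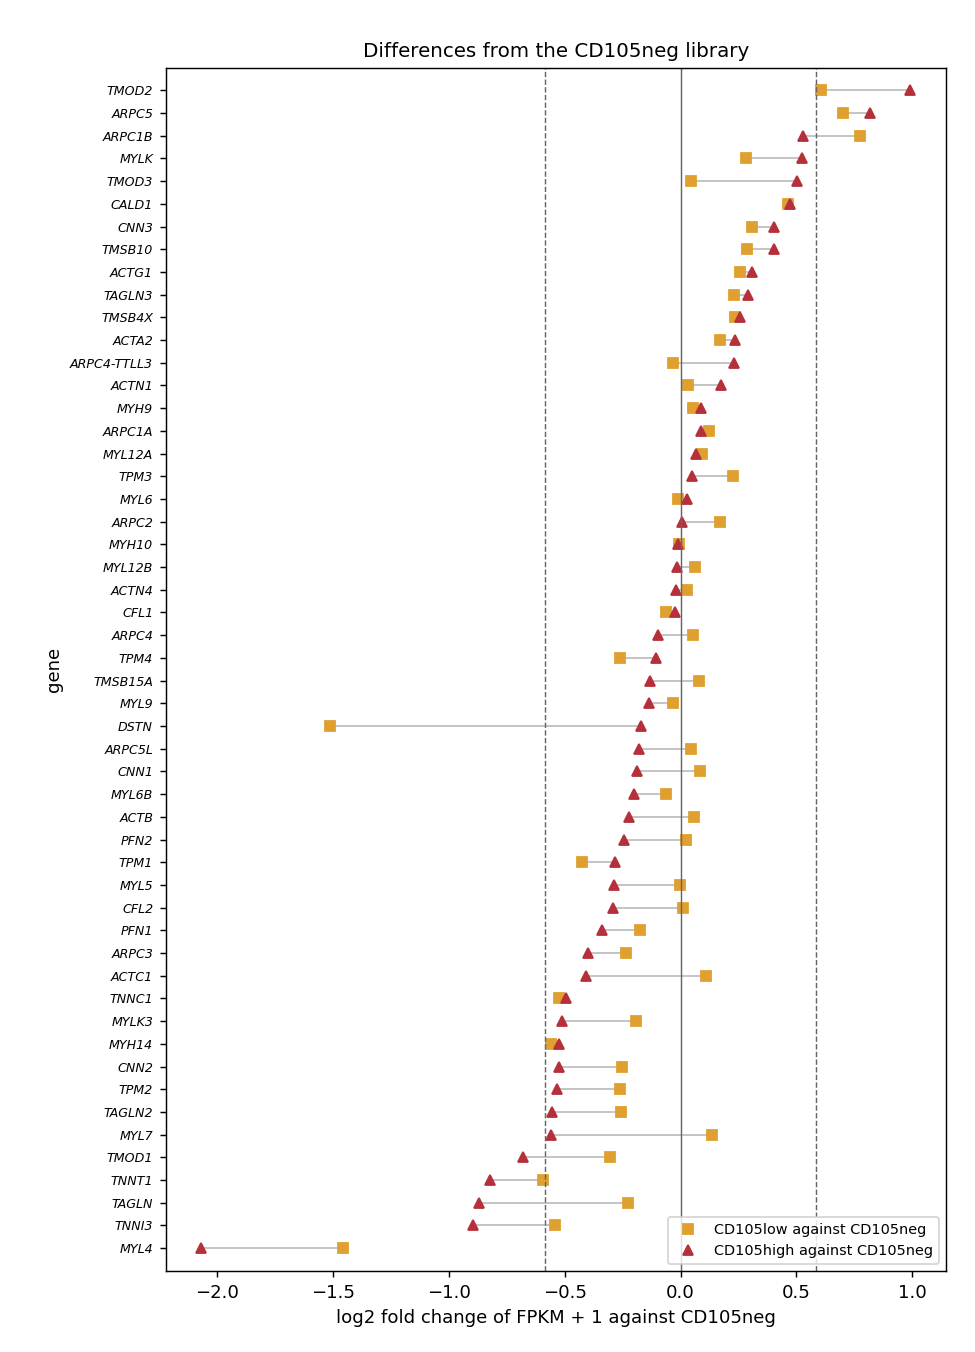
Log2 fold change of FPKM + 1 against CD105neg for the 52 measured members, ordered by CD105high, with squares for CD105low and triangles for CD105high and dashed lines at 1.5-fold. In CD105high MYL4 lies furthest left (-2.07) and DSTN is near zero (-0.17), and in CD105low DSTN (-1.51) and MYL4 (-1.46) lie furthest left.

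The beta-thymosins, which bind actin monomers and keep them out of filaments, were the most abundant members. TMSB10 stood at 2262 (CD105neg), 2762 (CD105low) and 2993 FPKM (CD105high), rank 1 of all genes in each library. TMSB4X stood at 1175, 1382 and 1405 FPKM, at ranks 11, 5 and 4. Both were lowest in CD105neg, with log2 fold changes of 0.40 and 0.26 for CD105high against CD105neg, which is short of 1.5-fold. TMSB15A, a further family member, stood at 44.9, 47.5 and 40.8 FPKM, with CD105high lowest. The ratio of TMSB10 to TMSB4X, which does not depend on how a library is scaled, was 1.92, 2.00 and 2.13.

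Because the counts of such close relatives depend on reads that tell them apart, the coding sequences of the 2 leading thymosins are shown, from the GENCODE release 29 transcripts, 5′ to 3′, with the bases that differ in capitals.
TMSB10: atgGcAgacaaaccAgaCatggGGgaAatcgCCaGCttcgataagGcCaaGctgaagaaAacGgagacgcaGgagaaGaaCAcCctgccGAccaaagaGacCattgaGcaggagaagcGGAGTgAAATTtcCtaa
TMSB4X: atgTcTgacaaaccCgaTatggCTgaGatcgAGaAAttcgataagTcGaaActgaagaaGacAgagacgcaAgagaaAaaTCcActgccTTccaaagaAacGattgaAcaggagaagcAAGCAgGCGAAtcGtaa
Each is 135 bases long, 37 positions differ (72.6% identical), and the longest identical run is 10 bases. In transcripts cut into 50-base pieces every 40 bases, 8.33% of the pieces of TMSB10 and 20.7% of those of TMSB4X also occur in another gene, among them the pseudogene TMSB10P1 and several pseudogenes of TMSB4X.

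Profilins exchange the nucleotide on actin monomers and feed them to growing filament ends. PFN1, the general form, stood at 410, 364 and 324 FPKM in CD105neg, CD105low and CD105high, lower at each step (log2 fold change of CD105high against CD105neg -0.34). PFN2 stood at 20.6, 21.0 and 17.3 FPKM, close between CD105neg and CD105low. Neither reached 1.5-fold in any pair. TMSB10 and TMSB4X thus lay in the opposite order to PFN1 over the 3 libraries.

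Among actins, the balance between the 2 cytoplasmic genes differed more than their total. ACTB, beta-actin, stood at 296, 307 and 253 FPKM, and ACTG1, gamma-actin, at 165, 198 and 205 FPKM. ACTB was lowest and ACTG1 highest in CD105high. The ratio of ACTB to ACTG1 was 1.79 in CD105neg, 1.55 in CD105low and 1.24 in CD105high, while all actins together summed to 489, 536 and 488 FPKM. For ACTB 10.6% of the sampled sequence occurs in other genes, and for ACTG1 4.30%. ACTA2, the smooth muscle actin also made by activated fibroblasts, stood at 20.4, 23.1 and 24.2 FPKM, and ACTC1, cardiac actin, at 7.16, 7.82 and 5.16 FPKM. ACTA1 and ACTG2, of skeletal and enteric smooth muscle, were under 0.08 FPKM in every library.

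The 7 ARPC subunit genes belong to the Arp2/3 complex, which starts a new filament as a branch on an old one. They had close totals in CD105neg and CD105high (394 and 396 FPKM, with 434 FPKM in CD105low), but differed in how they were ordered. ACTR2 and ACTR3, which encode the Arp2 and Arp3 subunits, were no members and are not in these totals. ACTR2 stood at 62.0, 89.2 and 78.1 FPKM, and ACTR3 at 32.2, 31.7 and 29.8 FPKM. ARPC5 stood at 24.8 (CD105neg), 40.9 (CD105low) and 44.5 FPKM (CD105high). It was low in CD105neg only, with log2 fold changes of 0.70 and 0.82 for CD105low and CD105high against CD105neg. Its alternative form ARPC5L stood at 13.4, 13.8 and 11.7 FPKM, so the ratio of ARPC5 to ARPC5L was 1.86, 2.96 and 3.82. ARPC3 lay in the opposite order, at 119, 101 and 89.9 FPKM. ARPC2, which with ARPC4 forms the core of the complex, stood at 99.3, 112 and 99.8 FPKM, and ARPC4 at 60.1, 62.5 and 56.2 FPKM.

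The remaining ARPC subunit comes in 2 forms, encoded by neighbouring genes on chromosome 7. ARPC1A stood at 47.1, 51.4 and 50.1 FPKM, and ARPC1B at 30.2, 52.4 and 44.0 FPKM, 1.71-fold higher in CD105low than in CD105neg. The read-through gene AC004922.1, whose transcripts overlap both, stood at 11.1, 2.99 and 8.91 FPKM, lowest where ARPC1B was highest, and 69.1% of the sampled sequence of ARPC1B and 60.2% of that of ARPC1A occurs in other genes. Summed with AC004922.1, an alternative added once the values were known, ARPC1B was 1.34-fold higher in CD105low and 1.27-fold higher in CD105high than in CD105neg, short of 1.5-fold. ARPC4-TTLL3, a read-through from ARPC4, stood at 2.71, 2.63 and 3.36 FPKM, with 93.3% of its sequence in other genes.

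In the cofilin family, whose proteins sever and depolymerise filaments, 1 gene was set apart in 1 library. DSTN, destrin, stood at 63.4 (CD105neg), 21.6 (CD105low) and 56.1 FPKM (CD105high). CD105low was low, and the other libraries were close to each other, so DSTN did not follow the order of the sort. Among the 5919 genes at or above 10 FPKM, 18 genes (0.304%) were at least 1.5-fold lower in CD105low than in both other libraries, and DSTN was the only member. At least 2-fold, there were 5 such genes, among them DSTN and AC004922.1. CFL1, the main cofilin of non-muscle cells, stood at 202, 193 and 199 FPKM, and CFL2, the muscle form, at 13.7, 13.8 and 11.02 FPKM. DSTN took 22.7%, 9.44% and 21.1% of the family's summed level. The pseudogenes that share sequence with DSTN match 6.45% of its pieces.

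Tropomodulins cap the pointed end of filaments, and their genes differed in direction. TMOD2, best known from neurons, stood at 3.29 (CD105neg), 5.53 (CD105low) and 7.54 FPKM (CD105high), the highest log2 fold change of any measured member for CD105high against CD105neg (0.99). Its neighbour on chromosome 15, TMOD3, the widely expressed form, stood at 13.5, 14.0 and 19.6 FPKM (log2 fold change 0.50). TMOD1, the form of red cells and of heart and skeletal muscle, stood at 1.36, 0.91 and 0.48 FPKM (-0.68). The ratio of TMOD2 to TMOD1 was 2.42, 6.07 and 15.9. The value of TMOD1 is low and uncertain: 48.7% of its sampled sequence also occurs in TSTD2, and after centring on the median gene it was no longer 1.5-fold apart (log2 fold change -0.58). TMOD4, LMOD1, LMOD2 and LMOD3, the muscle tropomodulin and the leiomodins, stayed under 1 FPKM in every library.

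**Figure D4:**
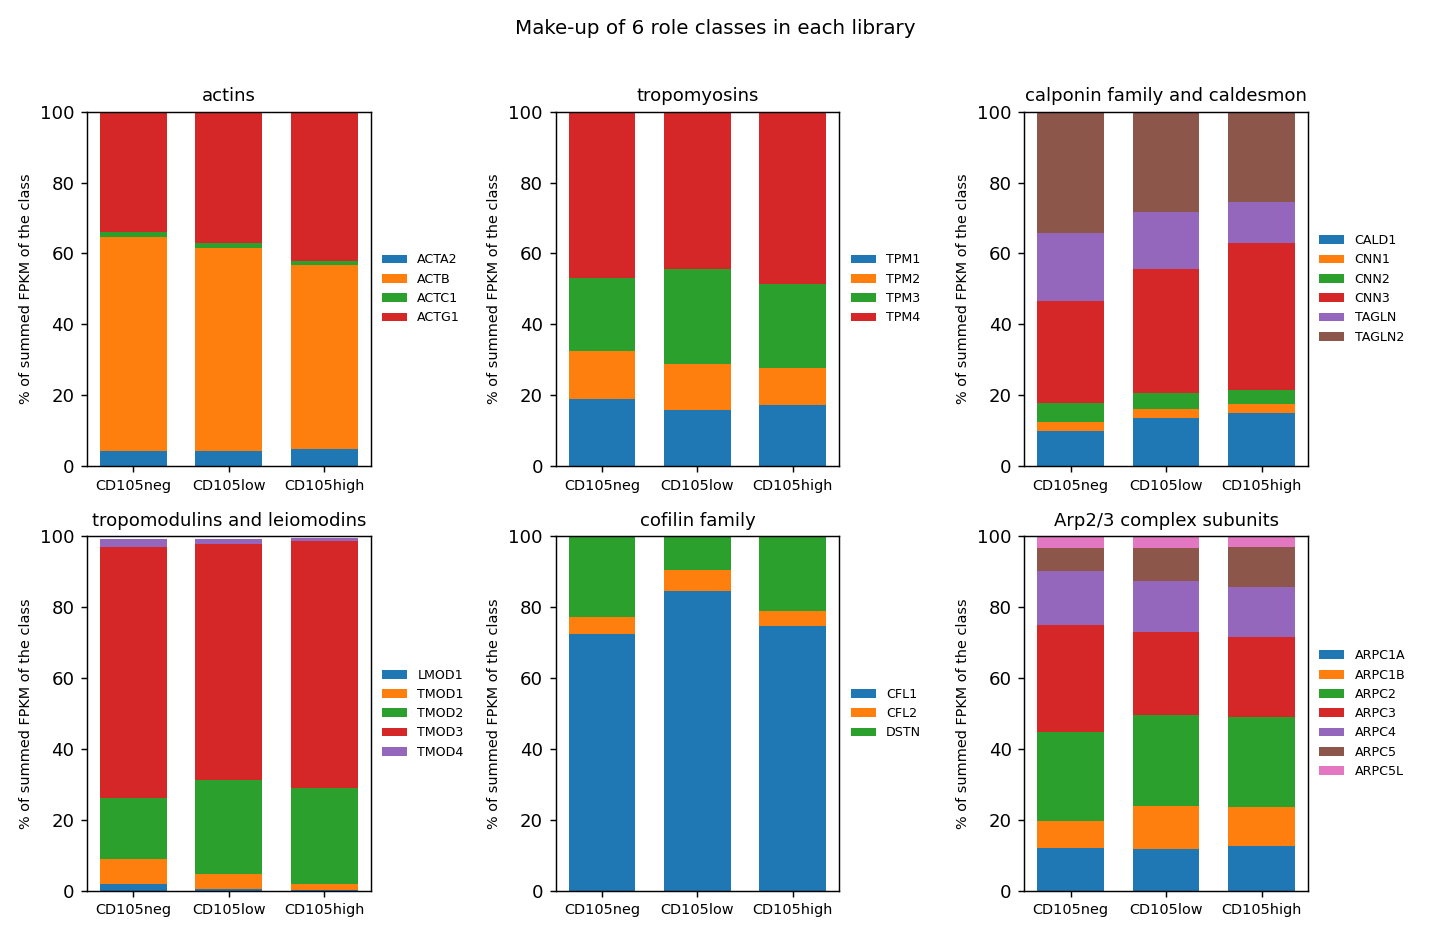
Share of the summed FPKM of 6 role classes (vertical axis, percent) taken by each member in each library, for members with at least 1% in some library. ACTG1, CNN3 and ARPC5 take larger shares in CD105high than in CD105neg, ACTB, TAGLN and TMOD1 smaller ones, and DSTN has its smallest share in CD105low.

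Tropomyosins coat filaments and decide which myosins and severing proteins can bind. TPM4 stood at 199, 166 and 185 FPKM, TPM3 at 86.0, 101 and 89.0 FPKM, and TPM1 at 79.7, 59.1 and 65.3 FPKM, each without step order. TPM2 stood at 58.3, 48.5 and 40.0 FPKM, in falling order, at a log2 fold change of -0.53 for CD105high against CD105neg. Together the 4 genes summed to 423, 374 and 379 FPKM. No tropomyosin was 1.5-fold apart in any pair.

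Calponins, transgelins and caldesmon bind along filaments, and several are used as smooth muscle markers. Their total was 400 (CD105neg), 406 (CD105low) and 365 FPKM (CD105high), but the members went separate ways. TAGLN, transgelin or SM22-alpha, stood at 77.5, 66.1 and 41.9 FPKM, lowest in CD105high (log2 fold change -0.87 against CD105neg and -0.64 against CD105low). Against CD105low it was short of 1.5-fold after centring (-0.54) and rescaling (-0.55). TAGLN2, the form of non-muscle and blood cells, stood at 135, 113 and 92.0 FPKM (-0.55), and CNN2 at 22.0, 18.3 and 14.98 FPKM (-0.52). CNN3, the calponin of non-muscle cells, stood at 114, 141 and 151 FPKM (0.40), and CALD1, caldesmon, at 39.4, 54.8 and 55.0 FPKM (0.47). The ratio of TAGLN to CNN3 was 0.68, 0.47 and 0.28. CNN1, the calponin of smooth muscle, stood at 10.3, 10.9 and 8.90 FPKM, and TAGLN3 at 0.95, 1.29 and 1.39 FPKM. For TAGLN, 17.9% of the sampled sequence also occurs in PCSK7, which stood at 10.5, 9.57 and 9.29 FPKM.

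Markers of mural and mesenchymal cells lay in part in the same order as TAGLN. Of 10 mural and smooth muscle markers 8 were measured. Of these, 4 were lower by 1.5-fold or more in CD105high than in CD105neg, beside 6.88% of all measured genes. The summed level of the 10 was 170, 178 and 164 FPKM, most of it from RGS5 at 114, 124 and 111 FPKM. The 4 were PDGFRB, CSPG4, DES and MYOCD. DES was only just past 1.5-fold (log2 fold change -0.60), and CSPG4 was low, at 1.38, 0.75 and 0.47 FPKM. PDGFRB, the receptor of pericytes, stood at 9.05, 4.99 and 2.74 FPKM, and MYOCD, a coactivator of smooth muscle genes, at 2.57, 1.47 and 0.75 FPKM. The other measured markers were within 1.5-fold: RGS5, KCNJ8, NOTCH3 at 14.1, 13.8 and 13.3 FPKM, and SMTN, smoothelin, which lay in the opposite order to TAGLN at 24.3, 28.7 and 32.8 FPKM. ABCC9 and SYNPO2 were under 1 FPKM. Of 8 mesenchymal markers 5 were measured. Of these, 3 were lower in CD105high (PDGFRB, which is on both lists, COL1A1 and COL3A1), beside the same 6.88%. The 8 together summed to 273, 246 and 209 FPKM, most of it from COL1A2 at 216, 199 and 177 FPKM, which was within 1.5-fold. PDGFRA was also within 1.5-fold and was lowest in CD105neg, at 11.7, 14.9 and 13.2 FPKM. MYH11, the myosin heavy chain that defines mature smooth muscle, was at most 0.03 FPKM. In bulk samples fewer cells of a type and less RNA per cell cannot be told apart, and the part of such cells in the level of TAGLN was not tested.

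Alpha-actinins crosslink filaments into bundles. ACTN1 stood at 58.2, 59.5 and 65.8 FPKM and ACTN4 at 45.9, 46.9 and 45.4 FPKM, both within 1.5-fold. ACTN2 and ACTN3, the sarcomeric forms, stayed under 1 FPKM.

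The motor of non-muscle contraction was close to constant. MYH9, the heavy chain of non-muscle myosin IIA, stood at 106, 110 and 113 FPKM, and MYH10, that of myosin IIB, at 54.4, 54.1 and 54.0 FPKM. MYL6, the essential light chain that goes with them, stood at 709, 703 and 723 FPKM, and the regulatory light chains MYL12A and MYL12B at 245, 262 and 257 FPKM and at 221, 231 and 218 FPKM. On the deposited scale each of these 5 genes had a log2 fold change within 0.1 of zero between any 2 libraries. The sign changed with scaling for MYH10, MYL12A, MYL12B and MYL6. After rescaling to equal sums, the values for CD105high against CD105neg ran from 0.11 (MYL12B) to 0.21 (MYH9). MYH14, the heavy chain of myosin IIC, stood at 1.05, 0.39 and 0.43 FPKM. MYL6B, the neighbour of MYL6, stood at 34.0, 32.5 and 29.5 FPKM.

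The kinases that phosphorylate the regulatory light chain parted. MYLK, the kinase of smooth muscle and endothelium, stood at 13.6, 16.8 and 20.0 FPKM, higher at each step (log2 fold change 0.53 for CD105high against CD105neg). MYLK3, the cardiac form, stood at 4.50, 3.81 and 2.86 FPKM (-0.51). MYLK thus took 72.1%, 77.5% and 84.0% of the kinases' summed level. MYLK2 and MYLK4 stayed under 1 FPKM.

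Muscle-type light chains were present at low levels. MYL4, the essential light chain of the embryo and of the atria, stood at 10.9 (CD105neg), 3.31 (CD105low) and 1.83 FPKM (CD105high). It was high in CD105neg only, and its log2 fold change of -2.07 for CD105high against CD105neg was the largest in size of any measured member. None of its sampled sequence occurs in another gene. The step from CD105low to CD105high was small (-0.61), and it was no longer 1.5-fold with a pseudocount of 5 or after centring or rescaling. MYL7, the regulatory light chain of the atria, did not share this pattern: it stood at 5.39, 6.02 and 3.33 FPKM, lowest in CD105high (-0.70 against CD105low, and -0.40 with a pseudocount of 5). MYL9, the regulatory light chain of smooth muscle, stood at 6.58, 6.42 and 5.90 FPKM, and MYL5 at 2.91, 2.90 and 2.20 FPKM. MYL1 and MYL3, of skeletal muscle and ventricle, were under 1 FPKM, and MYL2 and MYL10 were listed at 0 in all 3 libraries.

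Erythroid markers, like MYL4, were highest in CD105neg. Of the 11 fixed markers 10 had a value and 7 were measured. All 7 reached 1.5-fold below CD105neg in both CD105low and CD105high, beside 2.18% and 6.88% of all measured genes. The summed level of the 10 was 61.0 (CD105neg), 19.6 (CD105low) and 10.02 FPKM (CD105high), with HBZ, HBA1 and HBA2 under 1 FPKM in every library. RHAG, of the red cell Rh complex, stood at 26.3, 10.9 and 5.71 FPKM, lower at each step as MYL4 was, while HBG2, a fetal globin gene, stood at 8.10, 1.16 and 1.27 FPKM, lowest in CD105low. The 9 megakaryocyte markers summed to 13.6, 8.51 and 4.88 FPKM, with 4 measured and GP9, GP1BA, GP1BB, PPBP and TUBB1 under 1 FPKM. The part of such cells in the level of MYL4 was not tested.

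Troponin, the calcium switch of striated muscle, was represented by 1 gene of each subunit. TNNT1, troponin T of slow skeletal muscle, stood at 33.8, 22.0 and 18.7 FPKM, lower at each step, with log2 fold changes of -0.60 for CD105low and -0.82 for CD105high against CD105neg. Its neighbour on chromosome 19, TNNI3, cardiac troponin I, stood at 3.94, 2.40 and 1.66 FPKM (-0.54 and -0.90), and 36.2% of its sampled sequence occurs in another gene, AC010327.1, itself at or below 0.0005 FPKM. TNNC1, troponin C of slow and cardiac muscle, stood at 14.6, 9.88 and 10.1 FPKM. All 3 were highest in CD105neg. The call for TNNI3 in CD105high was lost with a pseudocount of 5 (-0.43). The call for TNNT1 in CD105low is marginal, since it was short of 1.5-fold with a pseudocount of 5 (-0.52) and after rescaling (-0.57). The other 5 troponin genes, TNNC2, TNNI1, TNNI2, TNNT2 and TNNT3, stayed under 1 FPKM, and TNNT2, cardiac troponin T, was at most 0.08 FPKM.

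The set of sarcomere genes was not complete. All 11 muscle myosin heavy chain genes were under 1 FPKM in every library, and their summed level was 1.84, 1.28 and 1.06 FPKM. MYH6, of the atria, stood at 0.58, 0.53 and 0.27 FPKM, MYH2, of fast skeletal muscle, at 0.52, 0.10 and 0.15 FPKM, and MYH3, the embryonic form, at 0.41, 0.24 and 0.29 FPKM. MYH1, MYH4, MYH7, MYH7B, MYH8, MYH11, MYH13 and MYH15 were each below MYH6 in all 3 libraries. Of 10 further cardiac markers 2 were measured, TTN at 4.11, 4.35 and 3.61 FPKM and SLC8A1, while CSRP3 was listed at 0 in all 3 libraries and MYBPC3, RYR2, PLN, NPPA, NPPB, CASQ2 and SMPX were under 1 FPKM. The summed level of these 10 was 5.58, 6.20 and 4.40 FPKM. Of 8 skeletal markers 6 had a value, and MYOG and MYOD1 had none. Only DES, which is also on the mural list, was measured, at 2.77, 2.15 and 1.49 FPKM. It was 1.5-fold lower in CD105high than in CD105neg. CKM, RYR1, CASQ1, MYLPF and the member ACTN3 were under 1 FPKM as well.

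Other genes of actin signalling were counted in the same way, with any members on a list left out, for CD105high against CD105neg. Among genes of actin nucleation and elongation outside the ARPC genes, 4 of 34 were higher and none lower, beside 5.65% and 6.88% of all measured genes (median log2 fold change 0.05), with the WAVE gene WASF1 at 6.97, 11.7 and 13.6 FPKM and the formin gene DAAM1 at 37.6, 56.3 and 60.5 FPKM.

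Among genes of crosslinking, capping and turnover, 4 of 37 were higher and 4 lower, beside the same 5.65% and 6.88% (median 0.14). GSN, gelsolin, which cuts and caps filaments, stood at 91.6, 145 and 203 FPKM, and MARCKS, which ties actin to the plasma membrane, at 84.2, 153 and 221 FPKM. GMFB, which removes Arp2/3 branches, stood at 33.5, 38.2 and 11.3 FPKM, low in CD105high only. Focal adhesion genes had 2 of 34 higher and 1 lower, beside 5.65% and 6.88% of all measured genes (median 0.02).

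Unconventional myosins, which carry cargo or tether membranes, had 4 of 16 measured genes higher, where 5.65% of all measured genes were, and 1 lower, where 6.88% were (median -0.02). MYO1E stood at 2.65, 6.47 and 12.7 FPKM, MYO6 at 7.80, 14.7 and 17.4 FPKM and MYO10 at 11.5, 17.8 and 20.0 FPKM, each lowest in CD105neg. A further list joined targets of the factors SRF and YAP, both of which respond to the state of actin, with MKL1 and MKL2, coactivators of SRF. After leaving out the 6 members on this list, 15 genes were measured. Of these none was higher, beside 5.65% of all measured genes. The receptor gene AXL, at 12.9, 7.92 and 5.79 FPKM, was the only 1 lower, beside 6.88% of all. The median was -0.22, beside -0.09 over all measured genes.

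The CArG box is the DNA element bound by SRF, which drives many actin and myosin genes. It was searched on both strands in the 250 bases before each RefSeq transcription start (GRCh38.p14), where 63 members had at least 1 window. It occurred in 9 of 91 windows of members (9.89%) and in 1.16% of all 35116 windows. The motif TATAAA occurred in 17.6% of the members' windows and 10.7% of all. Among measured genes alone it occurred in 8.45% of the members' windows and 5.61% of all. ACTB, ARPC1B, MYL4, MYL9, PFN2, TAGLN and TNNC1 were measured but had no window here and were not searched. The measured genes in which a CArG box was found were ACTC1, ACTG1, ACTN1, CNN2, MYL7, MYLK and TPM4. They did not share a direction: ACTG1, ACTN1 and MYLK had their highest level in CD105high, and ACTC1, CNN2 and MYL7 their lowest. A gene can have several starts, and which start made the RNA was not tested. The window shown for MYLK therefore need not belong to the transcript of the full kinase. For 4 of them, 2 of each kind, the first window with a box was taken. Its last 120 bases before the start are shown 5′ to 3′ on the strand of the gene, with the CArG box in capitals.
ACTG1 (chr17:81512800-81512919, minus strand): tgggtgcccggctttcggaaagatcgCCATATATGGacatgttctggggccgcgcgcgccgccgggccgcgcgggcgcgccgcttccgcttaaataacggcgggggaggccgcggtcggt
MYLK (chr3:123620549-123620668, minus strand): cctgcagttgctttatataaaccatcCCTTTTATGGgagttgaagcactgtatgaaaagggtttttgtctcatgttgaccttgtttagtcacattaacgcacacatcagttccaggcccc
CNN2 (chr19:1026488-1026607, plus strand): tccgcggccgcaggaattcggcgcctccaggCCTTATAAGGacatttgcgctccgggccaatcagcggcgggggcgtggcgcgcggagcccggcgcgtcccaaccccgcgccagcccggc
MYL7 (chr7:44141333-44141452, minus strand): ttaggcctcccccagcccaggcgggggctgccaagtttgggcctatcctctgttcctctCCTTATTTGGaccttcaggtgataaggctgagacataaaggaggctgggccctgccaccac
The box lies 94, 94, 89 and 61 bases before the start in ACTG1, MYLK, CNN2 and MYL7, counted to its first base. A match of letters is a description and does not show that the factor was bound.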

How the data were processed

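RNA-seq was analysed for 3 libraries, 1 per sorted population. Per the labels' protocols, 2 ug of total RNA per library went into a TruSeq RNA kit, which leaves the strand unmarked. Tools named in the submitters' processing notes are RSEM, Bowtie and BWA, and the build is hg19. Their versions and roles are not stated. The deposited values, 1 per gene and library, were treated as FPKM. The sources used here do not name the unit, and TPM would differ by 1 factor per library. The value column of the CD105neg library is headed as CD105 positive, and its group was taken from the sample's title. The lowest values of genes with 1 transcript, times length, fell on steps (49.0%, 45.0% and 42.3% of 306, 307 and 357 values within 0.08 steps). If these are FPKM, the steps put CD105low at 1.11 times and CD105high at 1.06 times the depth of CD105neg. The number of reads is not given, so no counting interval is printed.

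The members and gene lists were chosen with earlier results of these data known. Log2 fold changes were taken of the value plus 1 on the deposited scale (Python 3.11.15, pandas 2.3.3). The text names every member at or above 10 FPKM or at least 1.5-fold apart (45 genes). The remaining members are named to account for all 82, with values or as under a stated level, and the markers HBG2, NOTCH3 and SMTN were chosen after their values were seen. Shared sequence was measured on GENCODE release 29 transcripts (50-base pieces, every 40 bases). That release is on another build, so no gene coordinates are given. Promoters are RefSeq's, on GRCh38.p14, as printed. Protein sequences were not used here, and 1 of the gene lists is not reported here. The fold and call functions were tested on simulated data. Alternatives changed the pseudocount (0.1 or 5), the filter (none or 10 FPKM), the scale, the fold (2) and the set (without members sharing at least 10% of their sequence).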

Additional observations from a re-analysis of the deposited data

How the results depend on the processing

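Each population had 1 library, so no replicate could be left out, and no paired analysis was possible because no group has a second sample. The number of members at least 1.5-fold apart between CD105high and CD105neg was 7. It was 4 with the filter at 10 FPKM, 4 without members that share sequence (TMOD2, ARPC5, MYL4 and TNNT1 remained), 11 with libraries rescaled to equal sums and 1 at 2-fold, MYL4. Between CD105low and CD105neg it was 6, and 2 at 2-fold. Between CD105high and CD105low it was 4, and 2 with a pseudocount of 5, 2 after centring, 2 after rescaling and 1 at 2-fold. For the filters and the 2-fold rule, fewer genes can pass by construction. The share over all measured genes was not counted under any of these alternatives, so the changed counts have no background. The median log2 fold change of -0.12 for CD105high against CD105neg became 0.0010 after rescaling, and that of -0.09 for CD105high against CD105low became 0.013 after centring, so the sign of both medians depends on the scale. No called value of the 45 named members changed sign under any alternative run. Of their 135 values, 6 changed their side of the 1.5-fold limit with a pseudocount of 5, 3 with 0.1, 6 after centring and 7 after rescaling. Low members (MYL4 in CD105high, TMOD1, TNNI3, MYH14) stand near 1 FPKM, and the number of reads behind them is unknown.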

Other observations

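Like ARPC1B and AC004922.1, a pair of overlapping genes outside the set differed in opposite directions in CD105low. The pair was not summed, and how reads were divided between its genes was not tested. EEF1G, a translation elongation factor gene, stood at 215 (CD105neg), 504 (CD105low) and 157 FPKM (CD105high), while AP002990.1 stood at 209, 4.02 and 179 FPKM. Among the genes at or above 10 FPKM, AP002990.1 was first in the order of those lower in CD105low than in both other libraries, followed by PHLDA1, DSTN and AC004922.1. In the other direction, 25 genes (0.422%) were at least 1.5-fold higher in CD105low than in both others, led by RAP1B, B2M and EEF1G. At so small a share, that none was an actin or contractile gene of the set says little about the set. These genes were chosen after their values were seen.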
